A study of Mus musculus with 26 samples.

Results

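Genes of iron storage and glutathione-linked antioxidant defence were examined. They were chosen by symbol and found as 10 of the 55401 Ensembl gene rows that each count table holds, namely Fth1 and Ftl1 (ferritin), Ncoa4 (the receptor that delivers ferritin for breakdown), Hmox1 (heme oxygenase 1), Gpx1 and Gpx4 (glutathione peroxidases), Slc7a11 and Slc3a2 (the 2 chains of the cystine importer), Prdx1 (a peroxiredoxin) and Txn1 (thioredoxin). Group 2 innate lymphoid cells (ILC2s), lymphocytes that lack an antigen receptor and make type 2 cytokines, were sorted from lungs of female mice. In the first experiment, RNA was sequenced straight after the sort from unchallenged WT mice, with 3 libraries of CC030GeniUnc (CC030), an inbred line bred from several founder strains for the Collaborative Cross, and 3 of C57BL/6J. In the second, sorted ILC2s of 5 CC030GeniUnc mice were split and cultured with 10 µM AR420626, an agonist of the receptor FFAR3, or with DMSO vehicle, and harvested on day 2 and day 6, giving 5 libraries in each of 4 groups. Every culture, vehicle included, also held IL-33 and TSLP at 10 ng/mL and human IL-2 at 100 U/mL, so the vehicle cells were activated cells.

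Ferritin is a hollow shell of heavy (Fth1) and light (Ftl1) chains that stores iron, and the heavy chain oxidises the metal as it enters. Free iron reacts with peroxides and drives the oxidation of membrane lipids. Cells meet this with reduced glutathione, made from imported cystine, which the glutathione peroxidases use, and with the thioredoxin and peroxiredoxin relay. Synthesis of both ferritin chains is held back in low iron by iron regulatory proteins, which bind a hairpin in the 5′ UTR called the iron-responsive element. Loss of glutathione peroxidase 4 leads to ferroptosis, a form of cell death by lipid peroxidation.

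Short stretches of 4 member transcripts are shown because they carry the features by which these genes are known and because they bear on which reads can be told apart. The first pair holds the iron-responsive element cores of the mRNA, with the match to the motif (a C, any 5 bases, then CAGTG) in capitals, at bases 84 to 113 of the Fth1 transcript (chromosome 19) and 75 to 104 of the Ftl1 transcript (chromosome 7).
Fth1: ggtttcctgCTTCAACAGTGcttgaacgga
Ftl1: tgtgtcttgCTTCAACAGTGtttgaacgga
On the mRNA strand alone, the motif occurred in 1512 of 18656 annotated 5′ UTRs of at least 30 bases (8.1%), among them those of 3 of the 10 members, Fth1, Ftl1 and Ncoa4. The capitals are thus the same letters in both ferritin chains, and the motif alone is not particular to them. The second pair shows the in-frame TGA of the glutathione peroxidases, which is read as selenocysteine, the residue at the centre of their activity, at coding bases 124 to 156 of Gpx1 (chromosome 9) and 202 to 234 of Gpx4 (chromosome 10).
Gpx1: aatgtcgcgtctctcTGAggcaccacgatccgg
Gpx4: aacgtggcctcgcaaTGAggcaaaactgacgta

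Several members have near-identical annotated copies, which limits what a count can be assigned to. Over their coding sequences, 15 annotated rows matched a member at 90% identity or more across at least 80% of its length, 7 of them copies of Ftl1 and none of Gpx1, Hmox1, Slc7a11 or Slc3a2. Ftl1-ps1, on chromosome 13, matched Ftl1 at 99.6% with 2 differences in 549 coding bases and a longest identical stretch of 467 bases. Gpx4-ps2, on chromosome 10, matched Gpx4 at 99.6% with 2 differences in the 552 bases aligned and a longest identical stretch of 314 bases. The windows below hold coding bases 456 to 515 of Ftl1 and 174 to 233 of Gpx4 beside the copy, with the bases that differ in capitals.
Ftl1: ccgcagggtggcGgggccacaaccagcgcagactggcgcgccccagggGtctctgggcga
Ftl1-ps1: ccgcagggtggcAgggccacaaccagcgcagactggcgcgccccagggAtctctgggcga
Gpx4: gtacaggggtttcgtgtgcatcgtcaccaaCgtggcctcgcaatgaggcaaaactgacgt
Gpx4-ps2: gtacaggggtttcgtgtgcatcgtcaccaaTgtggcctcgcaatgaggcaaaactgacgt
A read that lies inside an identical stretch cannot be assigned to 1 of the 2 rows from its sequence.

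Naive CC030 libraries held 1324595 to 1524751 counts in genes, with a count at 43527 to 46111 genes each, and the 20 cultured CC030 libraries 227445 to 5320028. Each C57BL/6J library held 13533363 to 15234305, with a count at 15946 to 16553 genes. In the cultured libraries 2.06% to 11.1% of the tallied reads lay in genes. Among 12 ILC2 markers, all had a count in each group, but their summed level was 183 to 200 CPM (counts scaled to a common library size) in naive CC030 libraries and 12776 to 19373 CPM in C57BL/6J libraries. In naive CC030 libraries, 9 markers of macrophages and monocytes summed to 143 to 188 CPM. There, 5 markers of endothelium and stroma summed to 165 to 198 CPM, and the marker lists of other cell types to less. CC030 reads were aligned to another build and converted to mm10 coordinates, so the rows of all 23 CC030 libraries are named here by annotation, with no assurance that the reads come from that gene. C57BL/6J replicate 3 stood apart in the sum over 5 markers of lung epithelium, which was 14841 CPM there and 90.7 and 48.1 CPM in replicates 1 and 2. Nearly all of that sum was Sftpc, surfactant protein C of alveolar epithelium, with 172153 counts in replicate 3 against 1 and 4. The rest of that list did not set replicate 3 apart. Lyz2 held 14729 counts there, against 1 and 167. All members above 100 CPM but Slc3a2 were lowest in replicate 3, and the part of the Sftpc and Lyz2 reads in that was not tested.

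In naive C57BL/6J ILC2s, 7 of the 10 members were above 100 CPM and 3 were close to or at 0. CPM here is scaled by the trimmed mean of M values (TMM) over both strains. Fth1 (ENSMUSG00000024661, chr19:9980598-9985098, GRCm38), the heavy chain of ferritin, held 58140, 71969 and 67436 counts, or 6948, 8182 and 5781 CPM. Its mean of 6970 ± 1200 CPM (SD, n = 3) placed it at rank 13 of the 21678 genes with a count, whose median was 4.94 CPM. No other member reached the lowest Fth1 library, and its rank was also 13 without replicate 3. Ftl1 (ENSMUSG00000050708, chr7:45457944-45459884), the light chain, held 5612, 5833 and 6027 counts, a mean of 617 ± 86.8 CPM (SD, n = 3) and rank 394. Without replicate 3 the means were 7565 CPM for Fth1 and 667 CPM for Ftl1.

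The counts of the heavy chain exceeded those of the light chain in every C57BL/6J library. Fth1 counts were 10.4, 12.3 and 11.2 times those of Ftl1 in replicates 1, 2 and 3. With its 7 copies added to Ftl1, the ratio was 4.45, 5.40 and 5.05. The copy Ftl1-ps1 alone held 7411, 7442 and 7277 counts, more than Ftl1 itself in each library, so that 43.0% to 45.2% of the summed counts lay in the Ftl1 row. The row Gm10252, annotated on the opposite strand across part of Ftl1, held 3254, 3770 and 4072 counts, and strand-specific counting is not stated. Fth1 has 1 such copy, Gm6977 on chromosome X, with 568, 743 and 688 counts, and 99.0% of the summed counts lay in Fth1.

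Gpx1, the cytosolic glutathione peroxidase, was the higher of the 2 peroxidase rows. Gpx1 (ENSMUSG00000063856, chr9:108338903-108340343) held 15534, 18547 and 13859 counts, a mean of 1718 ± 476 CPM (SD, n = 3) at rank 102. Gpx4 (ENSMUSG00000075706, chr10:80047166-80056439), which reduces lipid peroxides within membranes, held 3436, 3822 and 3333 counts and averaged 377 ± 79.9 CPM (SD, n = 3) at rank 767. Without replicate 3 the means were 1982 CPM for Gpx1 and 423 CPM for Gpx4. All Gpx1 libraries lay above all Gpx4 libraries. Its copy Gpx4-ps2 held 12231, 12331 and 9981 counts, so only 21.9% to 25.0% of the summed counts of Gpx4 and its 2 copies lay in the Gpx4 row. The summed counts, 15669, 16155 and 13318, were close to those of Gpx1, above them in replicate 1 and below in replicates 2 and 3.

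**Figure D1:**
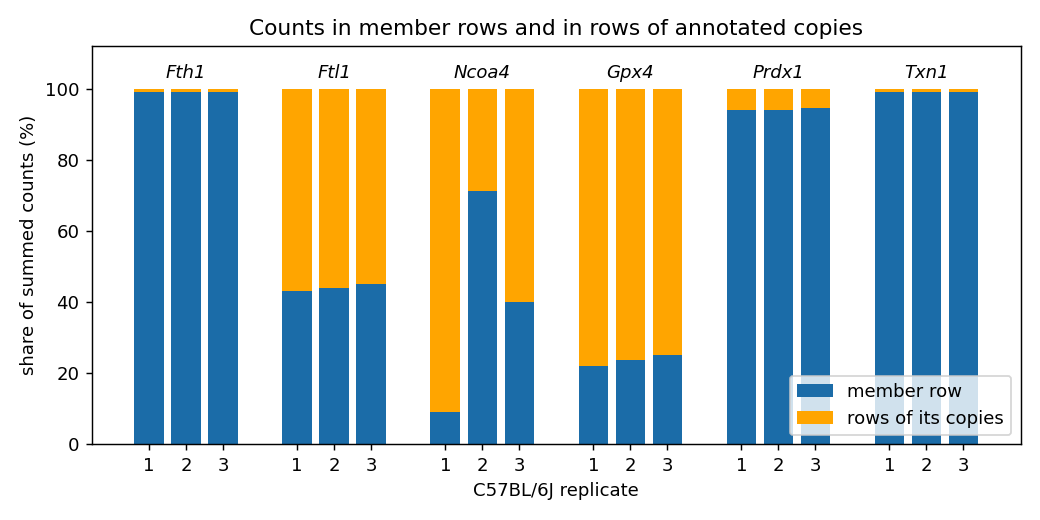
Share of the summed counts that lies in the row of each member (blue) and in the rows of its annotated copies (orange), in each of the 3 C57BL/6J libraries. Most counts of Fth1, Prdx1 and Txn1 lie in the member row, 43.0% to 45.2% of those of Ftl1 and 21.9% to 25.0% of those of Gpx4.

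Prdx1 and Txn1, partners in peroxide removal through cysteine thiols, were high in 2 libraries and lower in the third. Prdx1 (ENSMUSG00000028691, chr4:116685544-116700822), which reduces hydrogen peroxide, held 28436, 25310 and 13326 counts and averaged 2473 ± 1181 CPM (SD, n = 3) at rank 59. Txn1 (ENSMUSG00000028367, chr4:57943373-57956411), which returns peroxiredoxins to their reduced form, held 10355, 11321 and 6055 counts and averaged 1015 ± 430 CPM (SD, n = 3) at rank 211. In CPM, replicate 3, the library with the Sftpc counts, was lower than the mean of the other two by 2.75 times for Prdx1 and 2.43 times for Txn1. Without it the means were 3138 CPM for Prdx1 and 1262 CPM for Txn1. Both copies of Prdx1 with more than 1 count, Gm21399 and Gm7204, followed the same order of libraries, with 1244, 1153 and 492 counts and with 560, 477 and 289 counts.

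The cystine importer was represented by its heavy chain only. Slc3a2 (ENSMUSG00000010095, chr19:8706882-8723369), which also pairs with other amino acid transporters, held 2445, 2339 and 9604 counts and averaged 460 ± 315 CPM (SD, n = 3). Replicate 3 was 2.95 times the mean of the other two, which was 279 CPM. Slc7a11 (ENSMUSG00000027737, chr3:49892526-50443614), the cystine-specific light chain, had 0 counts in all 3 libraries, where 3 counts would be 0.257 to 0.359 CPM. The limit covers counting error only. Of the 5 other light chains of Slc3a2, Slc7a8 held 894, 583 and 865 counts (82.4 ± 21.5 CPM, SD, n = 3), Slc7a6 held 261, 56 and 159, Slc7a5 held 7, 23 and 58, Slc7a7 held 1, 29 and 0, and Slc7a10 none. Slc7a6 and Slc7a7 were named after their values were seen.

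Ncoa4 and Hmox1, which release iron from ferritin and from heme, were low. Ncoa4 (ENSMUSG00000056234, chr14:32159865-32179855) held 3, 32 and 215 counts, which gave 7.48 ± 9.63 CPM (SD, n = 3) and an SD larger than the mean. Its copy Gm6768, 99.9% identical with 2 differences, held 30, 13 and 324 counts. Both were highest in replicate 3, and without it Ncoa4 averaged 2.00 CPM. Hmox1 (ENSMUSG00000005413, chr8:75093621-75100589), which is induced by heme and oxidative stress, held 0, 0 and 1 counts, at or under the limit that 3 counts set.

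**Figure D2:**
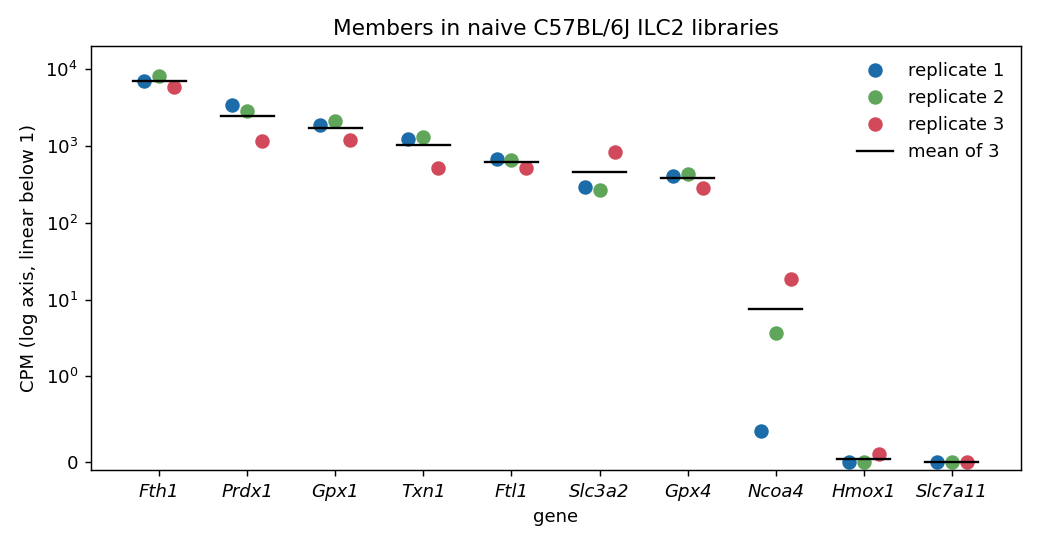
CPM of the 10 members in the 3 naive C57BL/6J libraries (points, on a log axis that is linear below 1), with the mean as a bar. Fth1 is highest in every library at 5781 to 8182 CPM, Slc3a2 is highest in replicate 3 and Prdx1 and Txn1 are lowest there, and Hmox1 and Slc7a11 lie at or near 0.

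Levels of different genes were compared per kilobase (kb) of annotated exon. Fth1 led with 2009 ± 346 CPM per kb (SD, n = 3), followed by Gpx1 with 1192 ± 330, Txn1 with 965 ± 409, Prdx1 with 813 ± 388, Ftl1 with 460 ± 64.8, Gpx4 with 219 ± 46.3 and Slc3a2 with 130 ± 89.1 CPM per kb. The libraries of neighbours in this order did not overlap between Fth1 and Gpx1, between Ftl1 and Gpx4 and between Slc3a2 and Ncoa4, and overlapped between all other neighbours. The annotated exons of Fth1 cover 3469 bases while its principal transcript has 929. By the length of the principal transcript, a scale added after the data were seen, Fth1 was at 7503 ± 1292 and Prdx1 moved to the second place at 2819 ± 1347 CPM per kb (SD, n = 3).

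The wider antioxidant and iron genes of C57BL/6J ILC2s were led by the thioredoxin and peroxiredoxin list, which was chosen with earlier results of these data known. Of its 19 genes 11 were at 100 CPM or more. Prdx6 averaged 936 ± 252, Prdx2 708 ± 236, Txn2 596 ± 84.9 and Prdx5 501 ± 62.7 CPM (SD, n = 3). Median levels over the other lists were 95.8 CPM for superoxide dismutases and catalase, 44.1 for lipid peroxidation and ferroptosis, 43.9 for glutathione peroxidases and transferases, 46.0 for heme handling, 33.5 for glutathione synthesis and recycling, 19.4 for NRF2 regulators and targets, 11.4 for iron uptake and export and 2.81 for the light chains. Nqo1, a quinone reductase driven by NRF2, had 0 counts in every library, as did Ggt1 and Chac1, which break down glutathione. Sod2, the mitochondrial superoxide dismutase, averaged 332 ± 83.3 CPM and Sod1, the cytosolic form, 134 ± 33.8 CPM (SD, n = 3).

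Against C57BL/6J, the rows of 7 members were lower in naive CC030 libraries and 2 were higher, at an adjusted p under 0.05 by edgeR's quasi-likelihood test. Over all 35551 genes tested, 64.1% were called higher in CC030 and 12.2% lower. Of the 2652 genes at 100 CPM or more in C57BL/6J, 2542 (95.9%) were called lower, and the 7 lower members are all among the genes at that level. The median log2 fold change was -5.60 over the members and 7.03 over all genes tested. With at least 10 counts in every library, 1329 of 7223 genes were called higher and 2150 lower, with a median of -0.22, so the balance over all genes turns with the filter. Strain and the way reads were aligned cannot be told apart here.

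The Fth1 row held 26, 25 and 27 counts in CC030 (11.9 ± 0.884 CPM), against 58140, 71969 and 67436 in C57BL/6J (6970 ± 1200 CPM, SD, n = 3 each), a log2 fold change of -9.19 (SE 0.47, adjusted p = 0.000446). The Ftl1 row held 0 counts in all 3 naive and all 20 cultured CC030 libraries. Set against a floor of 3 counts per library it was at least 449-fold lower in naive CC030 (adjusted p = 0.000459). Ftl1-ps1 held 7, 5 and 20 counts in CC030, against 7411, 7442 and 7277 in C57BL/6J. No overlap was seen between strains in any of these rows. Over all genes tested, 76.3% were called in either direction, and the share of all rows without overlap is not given here.

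The peroxidase, thioredoxin and heavy-chain rows were also far apart. Gpx1 held 14, 27 and 22 counts in CC030, against 15534, 18547 and 13859 in C57BL/6J (log2 fold change -7.49, SE 0.51), and Gpx4 held 36, 28 and 25 against 3436, 3822 and 3333 (-4.78, SE 0.42). Prdx1 held 35, 86 and 73 counts in CC030, against 28436, 25310 and 13326 in C57BL/6J (-6.41, SE 0.64), and Txn1 held 15, 9 and 14 against 10355, 11321 and 6055 (-7.44, SE 0.60). Slc3a2 held 58, 65 and 70 counts in CC030, against 2445, 2339 and 9604 in C57BL/6J (-3.97, SE 0.56). The adjusted p of these 5 rows lay between 0.000446 and 0.000463.

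The rows that were near 0 in C57BL/6J held counts in CC030. Slc7a11 held 82, 70 and 122 counts in CC030 (41.5 ± 10.8 CPM, SD, n = 3), against 0 in all 3 C57BL/6J libraries, at least 130-fold higher in CC030 at a floor of 3 counts per library (adjusted p = 0.00046). Hmox1 held 23, 25 and 20 counts in CC030, against 0, 0 and 1 in C57BL/6J, a ratio of 298 with an exact 95% counting interval of 51.7 to 11942 (adjusted p = 0.00046). Both rows lie in the direction of the 64.1% of all genes tested that were called higher in CC030. Slc7a11 has the most annotated exonic bases of the members, 13922, and levels per kb were not compared in CC030. Ncoa4 held 55, 53 and 76 counts in CC030, against 3, 32 and 215 in C57BL/6J. Its log2 fold change of 1.89 (SE 1.17, adjusted p = 0.176) did not pass in edgeR, while it passed in DESeq2 (adjusted p = 0.032) and without C57BL/6J replicate 3 (log2 fold change 3.34, adjusted p = 0.0143).

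**Figure D3:**
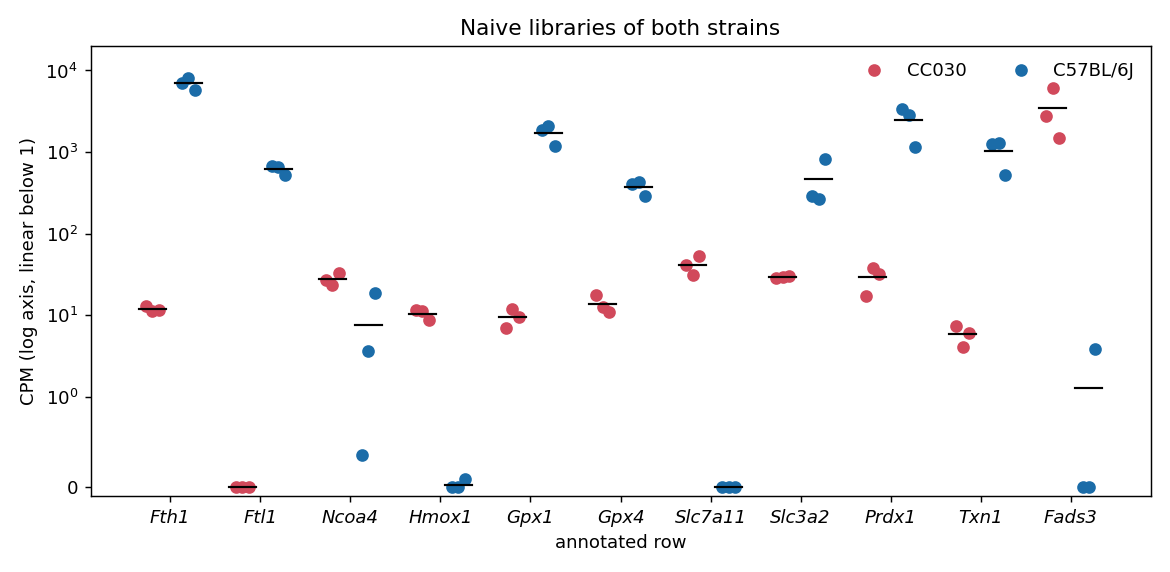
CPM of the 10 members and of the Fads3 row in the 3 naive CC030 (red) and 3 C57BL/6J (blue) libraries, on a log axis that is linear below 1, with group means as bars. 7 member rows lie lower in CC030, Hmox1 and Slc7a11 lie higher, and Fads3 lies at 1483 to 6030 CPM in CC030 and 0 to 3.86 CPM in C57BL/6J.

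Of the 9 pathway lists, 7 had more rows called lower than higher in CC030, and the iron uptake and light chain lists had more called higher. Over the 119 listed genes, 118 were tested, of which 19 were higher and 54 lower in CC030, with a median log2 fold change of -0.71. Over all genes tested 64.1% were higher and 12.2% lower, while 95.9% of genes at 100 CPM or more in C57BL/6J were lower. The thioredoxin list had a median of 119 CPM in C57BL/6J and the light chain list 2.81 CPM. The part of level in the counts by list was not tested. The counts called higher and lower were 2 and 12 of 19 in the thioredoxin and peroxiredoxin list (median -2.24), 1 and 10 of 16 in glutathione peroxidases and transferases (-1.80), 2 and 6 of 11 in glutathione synthesis and recycling (-1.73), 1 and 7 of 15 in heme handling (-1.23), 0 and 4 of 5 in superoxide dismutases and catalase (-1.85) and 2 and 6 of 14 in lipid peroxidation and ferroptosis (-0.55). They were 4 and 5 of 18 in NRF2 regulators and targets (median 0.34), 5 and 3 of 16 in iron uptake, export and sensing (1.14) and 2 and 1 of 5 in light chains (2.17), all below the 7.03 of all genes.

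Among the list genes with the smallest p, those high in C57BL/6J were lower in CC030. Prdx5, a mitochondrial and peroxisomal peroxiredoxin, averaged 5.55 ± 1.65 CPM in CC030 and 501 ± 62.7 CPM in C57BL/6J (SD, n = 3 each), Gstp1, a glutathione transferase, 12.7 ± 2.44 and 397 ± 111 CPM, and Sat1, a polyamine acetyltransferase, 9.88 ± 5.64 and 412 ± 128 CPM. Pcbp2, an iron chaperone, averaged 27.6 ± 1.38 CPM in CC030 and 371 ± 119 CPM in C57BL/6J, Taldo1, of the pentose phosphate pathway, 10.4 ± 5.14 and 376 ± 140 CPM, and Hmox2, the constitutive heme oxygenase, 12.0 ± 5.32 and 218 ± 102 CPM (SD, n = 3 each). Those at 0 in C57BL/6J, as Steap3, Alox12 and Ggt1, averaged 39.4 ± 8.63, 26.0 ± 7.19 and 19.1 ± 1.97 CPM in CC030 (SD, n = 3), bounds of at least 123-fold, 81.4-fold and 59.8-fold higher. Those bounds lie in the direction of the 64.1% of all rows called higher.

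To see whether counts of the CC030 libraries lay at the annotated positions, counts predicted from C57BL/6J exons moved along the chromosome were correlated with CC030 counts over the genes within 4 Mb of each member. These correlations run across genes of pooled libraries, and genes are not independent replicates. For Fth1 the cultured libraries correlated at 0.381 with no shift and best, at 0.55, with a shift of 74330 bp (402 genes). The best shift more than 50 kb away from it gave 0.469. With 2 Mb to each side the best shift was 73920 bp (r = 0.598). In the 3 naive CC030 libraries the best shift was 59570 bp, with r = 0.391 against 0.376 for the next, and in the smaller window -145030 bp (r = 0.442 against 0.422), in the opposite direction.

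At the shift of the cultured libraries in the larger window, 1791 of the 3469 exonic bases of Fth1 lie on annotated exons of Fads3. Rows at a shifted position, Fads3 included, were among the genes whose counts set that shift. Their counts are thus not independent of it. Fads3 is a gene of the fatty acid desaturase family, near Fth1 on chromosome 19. The Fads3 row held 5576, 13543 and 3426 counts in naive CC030 (3424 ± 2346 CPM, SD, n = 3), against 0, 0 and 45 in C57BL/6J, and 135378 in the 20 cultured libraries together. The naive CC030 values, 1483 to 6030 CPM, reached the range in which Fth1 itself lay in C57BL/6J, 5781 to 8182 CPM, in 1 of 3 libraries. At the naive shift of the larger window, 59570 bp, 388 exonic bases of Fth1 lay on Fads3. At that of the smaller window, -145030 bp, no Fth1 exon lay on Fads3. Whether these are reads of Fth1 or of Fads3 cannot be told apart from gene counts.

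**Figure D4:**
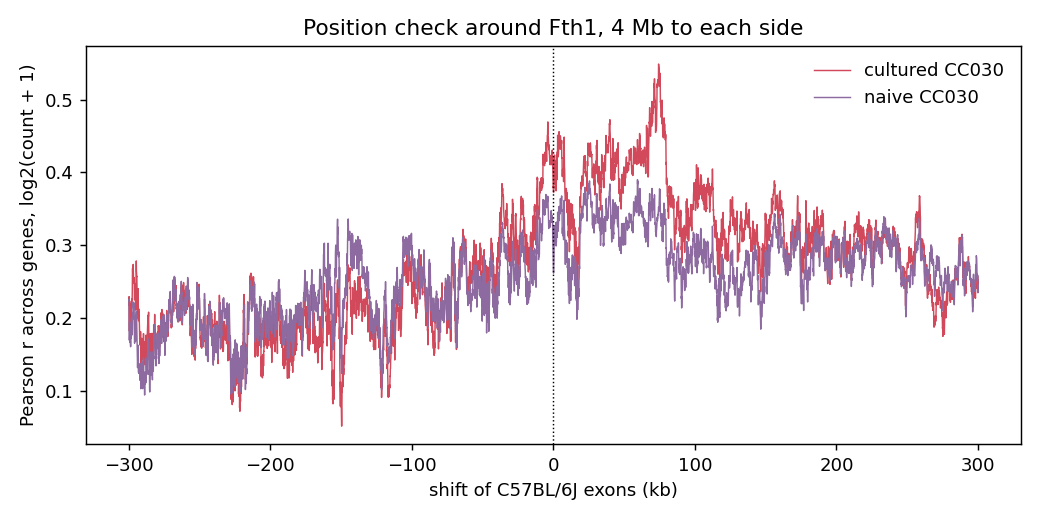
Pearson r across 402 genes within 4 Mb of Fth1 between CC030 counts and counts predicted from C57BL/6J exons moved by the shift on the x axis, in kb, for cultured (red) and naive (purple) CC030 libraries. The cultured curve peaks at 0.55 at a shift of 74330 bp and is at 0.381 at no shift, and the naive curve reaches 0.391.

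For Gpx4 the cultured libraries gave -535980 bp (r = 0.513, against 0.25 with no shift and 0.425 for the next) and -535950 bp in the smaller window, where no annotated row lies. The naive libraries gave -1102420 and -592100 bp for Gpx4. For Ncoa4 both windows of the cultured libraries gave 813030 bp (r = 0.52 and 0.529), on the rows of Wdfy4 and Lrrc18, and those of the naive libraries -116490 and -55180 bp. At 813030 bp, 759 of the 9365 exonic bases of Ncoa4 lay on Wdfy4 and 293 on Lrrc18. Slc7a11 stayed near its place in the cultured libraries, at -1000 and -950 bp (r = 0.518 and 0.523), so its exons still overlapped its own row. For Slc3a2, on the same chromosome as Fth1, the larger window of the cultured libraries gave -3990 bp (r = 0.532, against 0.522 for the next) and the smaller 75270 bp (r = 0.642), on the rows of Taf6l and Polr2g. At the shifts of the cultured libraries, the exons of Ftl1, Hmox1, Gpx1, Prdx1 and Txn1 met no row with more than 433 cultured counts. This does not cover the shifts of the naive libraries. In the larger window of the cultured libraries, r at the best shift was 0.462 for Prdx1, against 0.46 for the next. It was 0.521 against 0.516 for Hmox1 and 0.503 against 0.482 for Ftl1. Margins were wider for Txn1 (0.587 against 0.562) and Gpx1 (0.531 against 0.463). In the cultured libraries 8 of the 10 members had a best shift over 5000 bp in the larger window, and 9 in the smaller. The search covered a far wider range than 5000 bp, so high counts would arise without any displacement. Whether these counts exceed that was not tested.

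In culture, none of the members was called between AR420626 and vehicle on day 6. Only Slc7a11, Ncoa4 and Prdx1 passed the filter on low counts, and 0 of these 3 passed by edgeR, with 2 at an unadjusted p under 0.05, and 0 by DESeq2. Over all 9421 genes tested, 2.81% were called higher and 11.1% lower with AR420626. Slc7a11 stood at 26.7, 18.9, 25.9, 9.63 and 20.7 CPM with AR420626 in mice 1 to 5, against 32.4, 33.5, 42.3, 73.2 and 35.3 CPM with vehicle. All 5 AR420626 values lay below all 5 vehicle values, and the log2 fold change was -0.87 (SE 0.36, adjusted p = 0.121, edgeR). The share of all rows separated in this way is not given here. From 8 to 28 counts lay behind each AR420626 value and 36 to 79 behind each vehicle value.

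Ncoa4 stood at 37.2, 33.0, 27.1, 15.6 and 25.0 CPM with AR420626, against 55.2, 27.6, 39.1, 182 and 47.1 CPM with vehicle on day 6. The groups overlapped through mouse 2, whose vehicle value was below its AR420626 value, and the log2 fold change was -0.82 (SE 0.37, adjusted p = 0.149, edgeR). Prdx1 held 0 to 16 counts with AR420626 and 2 to 21 with vehicle, with a log2 fold change of 0.05 and an interval of -1.64 to 1.75. Fth1 held 4 to 10 counts with AR420626 and 2 to 14 with vehicle, Ftl1 none in either, and Hmox1, Gpx1, Gpx4 and Slc3a2 0 to 19 with AR420626 and 1 to 13 with vehicle. Txn1, which the filter also left out, held 9, 10, 10, 11 and 18 counts with AR420626, against 0, 11, 2, 1 and 2 with vehicle. In the fit with no filter its log2 fold change was 2.56 (SE 0.88) with an adjusted p of 0.148.

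The Fads3 row, at the shifted position of Fth1, fell with AR420626 on day 6. It stood at 6639, 3065, 5710, 6800 and 5652 CPM with AR420626 in mice 1 to 5, against 15812, 10201, 6845, 42939 and 12914 CPM with vehicle. Every AR420626 value was below every vehicle value, and the log2 fold change was -1.23 (SE 0.26, adjusted p = 0.002, edgeR), or 2.34-fold lower. The percentage called lower among all genes was the 11.1% given above, and the share of all rows separated in this way is not given here. Without mice 4 and 5, each of which has a day 2 library that stands apart, the log2 fold change was -0.96 and the adjusted p 0.263. On day 6 the vehicle library of mouse 4, the highest for Fads3, and the AR420626 library of mouse 2, the lowest, stood apart from their groups. The log2 fold change was -0.96 without mouse 4 alone (adjusted p = 0.0368, edgeR) and -1.01 without mouse 2 alone (adjusted p = 0.00694). Taf6l, at the shifted position of Slc3a2 in the smaller window, fell as well (log2 fold change -0.75, SE 0.23, adjusted p = 0.0294), and Polr2g (0.20), Wdfy4 (-0.69) and Lrrc18 (-0.46) did not pass.

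On day 2, 0 of the 7 members tested were called between AR420626 and vehicle by edgeR, with 1 at an unadjusted p under 0.05, and 0 by DESeq2. None of the 20865 genes tested was called in either direction (0.0%), with 396 at an unadjusted p under 0.05, and DESeq2 called 32. Slc3a2 was the member with the smallest p, at 3.62, 8.57, 10.3, 8.64 and 0 CPM with AR420626 in mice 1 to 5, against 24.5, 19.0, 12.7, 10.9 and 9.01 CPM with vehicle (log2 fold change -1.57, SE 0.70, adjusted p = 0.9997). All 5 mice had less with AR420626, while the groups overlapped. The AR420626 library of mouse 4 held 227445 counts in genes, the lowest of all, and 0 counts of Fth1, Ncoa4, Hmox1, Prdx1 and Txn1. Fads3 stood at 22.2, 30.4, 22.5, 1543 and 6688 CPM with AR420626, against 1536, 42.0, 34.2, 349 and 315 CPM with vehicle, with no common direction over mice (log2 fold change 0.14, SE 1.71).

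The AR420626 effect was not shown to differ between the days for any member. Of 9 members tested, 0 were called by edgeR, with 1 at an unadjusted p under 0.05, and 0 by DESeq2, while 12 of 23141 genes were called (0.0519%, with 0.0389% higher and 0.013% lower). Slc7a11 had the smallest p of them, with a log2 difference of -1.48 (SE 0.69, adjusted p = 0.934), and Fads3 had one of -2.45 (SE 2.14, adjusted p = 0.994).

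**Figure D5:**
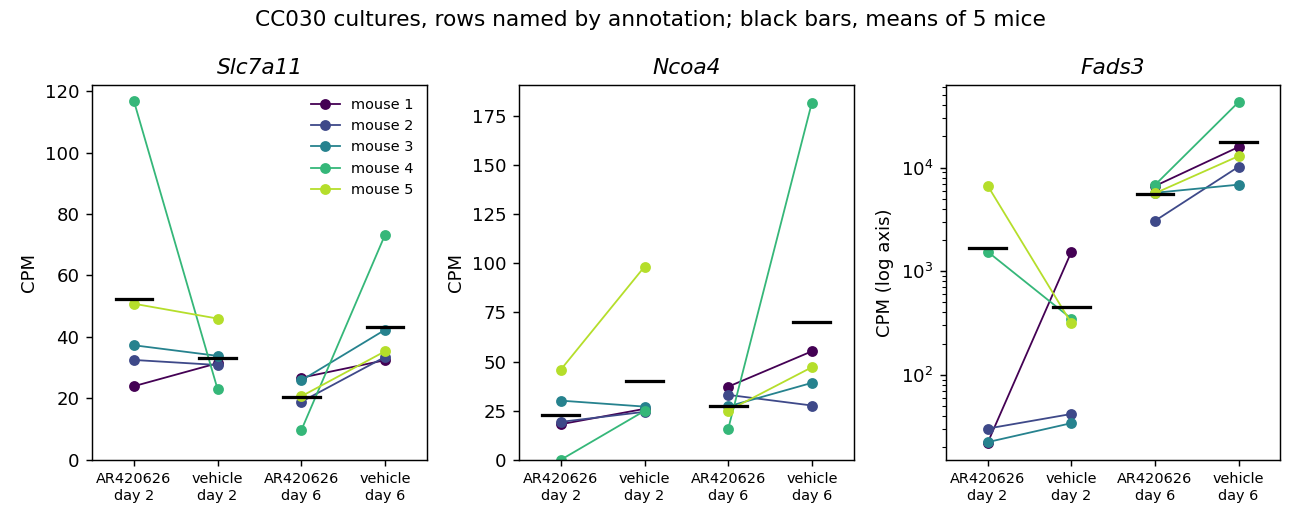
CPM of the Slc7a11, Ncoa4 and Fads3 rows in CC030 cultures with AR420626 and vehicle on days 2 and 6; points are mice, lines join the libraries of a mouse within a day, black bars are means of 5, and the Fads3 axis is logarithmic. On day 6 all AR420626 values of Slc7a11 and of Fads3 lie below all vehicle values, and mouse 4 has the highest vehicle value in all 3 panels.

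Between day 6 and day 2, no member passed in vehicle or in AR420626 cultures. In vehicle cultures 0 of 7 members tested were called by edgeR, with 2 at an unadjusted p under 0.05, and 0 by DESeq2, while 13.0% of the 15819 genes tested were called higher on day 6 and 6.3% lower. With at least 10 counts in every library the split turned, to 1081 genes higher and 1391 lower. Those 2 were Fth1, with 2 to 14 counts on day 6 and 12 to 95 on day 2 (log2 fold change -1.29, SE 0.59, adjusted p = 0.121), and Slc3a2, with 2 to 11 counts on day 6 and 10 to 53 on day 2 (-1.33, SE 0.56, adjusted p = 0.0961). Ncoa4 had a log2 fold change of 0.49 (SE 0.58, adjusted p = 0.538) and passed only without mouse 5 (1.31, adjusted p = 0.0382). Fads3 rose, with 6845 to 42939 CPM on day 6 and 34.2 to 1536 CPM on day 2 (log2 fold change 6.13, SE 1.54, adjusted p = 0.0094), a call lost without mouse 3 (adjusted p = 0.0512) or mouse 4 (adjusted p = 0.0624). These vehicle libraries of day 6 are also those of the day 6 comparison with AR420626.

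In AR420626 cultures 0 of 3 members tested were called by edgeR, with 1 at an unadjusted p under 0.05, and 0 by DESeq2, while 10.0% of the 14731 genes tested were called higher on day 6 and 1.14% lower. With at least 10 counts in every library it was 732 higher and 853 lower. That member was Slc7a11, at 9.63 to 26.7 CPM on day 6 and 24.0 to 117 CPM on day 2 (log2 fold change -1.37, SE 0.49, adjusted p = 0.0889). Without mouse as a block its adjusted p was 0.0288. Fads3 had 3065 to 6800 CPM on day 6 and 22.2 to 6688 CPM on day 2 (log2 fold change 5.22, SE 2.28, adjusted p = 0.157). It passed in DESeq2 (adjusted p = 7.79e-06), with at least 10 counts in every library (adjusted p = 0.0316), without mouse 5 (adjusted p = 0.00757) and without mice 4 and 5, whose day 2 values were the highest (7.62, adjusted p = 1.0e-08).

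Gm15590 and Gm7204, annotated copies, held more counts on day 6 than their members in every library. Gm15590, the copy of Ftl1 on chromosome 17, held 52 to 72 counts with AR420626 and 84 to 187 with vehicle on day 6, and was higher on day 6 than on day 2 in vehicle cultures, where 4 of 5 day 2 libraries had 0 (log2 fold change 7.53, SE 1.00, adjusted p = 0.000118). Gm7204, the copy of Prdx1 on chromosome 16, held 44 to 76 counts with AR420626 and 85 to 958 with vehicle on day 6, and was called lower with AR420626 (log2 fold change -1.38, SE 0.35, adjusted p = 0.00854). Both were named after their values were seen. The position of reads in these rows carries the same caution.

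Of the listed iron and antioxidant rows, 50 were tested on day 6, of which 10 were lower and 1 was higher with AR420626 (median log2 fold change -0.18, against 0.00 over all genes). Over all genes tested 11.1% were lower and 2.81% higher. With at least 10 counts in every library, 509 genes were lower and 510 higher, so the balance over all genes depends on the filter. The largest fall by fold was that of Lpcat3, a phospholipid acyltransferase, at 11.4 ± 7.54 CPM with AR420626 and 56.5 ± 43.8 CPM with vehicle. Cpox, an enzyme of heme synthesis, had the smallest p, at 76.8 ± 22.9 and 339 ± 190 CPM (log2 fold change -1.87, SE 0.25, adjusted p = 1.02e-05). Ccs, the copper chaperone of Sod1, stood at 90.5 ± 41.0 and 298 ± 190 CPM, Aifm2, a suppressor of ferroptosis, at 53.8 ± 25.1 and 143 ± 57.2 CPM, and Steap3, a ferric reductase, at 24.0 ± 8.55 and 75.6 ± 58.9 CPM (AR420626 first and vehicle second, SD, n = 5 each). Me1, Oplah, Alox12, Cbr1 and Hmox2 were the other rows that fell, and Mafk, a small Maf protein that pairs with NRF2, rose to 18.4 ± 6.48 CPM with AR420626, against 6.64 ± 8.23 CPM with vehicle (SD, n = 5 each).

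By list, the counts called higher and lower on day 6 were 0 and 3 of 7 tested in lipid peroxidation and ferroptosis (median -0.55), 1 and 2 of 12 in NRF2 regulators and targets (-0.04), 0 and 2 of 6 in heme handling (-0.36), 0 and 1 of 9 in iron uptake, export and sensing (0.50), 0 and 1 of 4 in glutathione synthesis and recycling (-0.38) and 0 and 1 of 3 in superoxide dismutases and catalase (-0.53). None was called of 7 in the thioredoxin and peroxiredoxin list (-0.13), of 2 glutathione peroxidases and transferases (0.24) and of the 1 light chain tested (1.33). Over all genes tested on day 6 the shares were 2.81% higher and 11.1% lower. On day 2 and between the days none of 105 and of 108 listed rows was called, against 0.0% and 0.0519% of all genes.

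In vehicle cultures 18 of 84 rows tested rose and 5 fell on day 6 against day 2 (median log2 fold change -0.52, against -0.54 over all genes, of which 13.0% rose and 6.3% fell), and in AR420626 cultures 13 of 82 rose and none fell (-0.26, against -0.26 over all genes, of which 10.0% rose and 1.14% fell). Both comparisons called Osgin1, an NRF2 target, at 846 ± 159 CPM on day 6 and 11.1 ± 2.90 CPM on day 2 with vehicle, and at 851 ± 355 and 55.5 ± 93.0 CPM with AR420626 (SD, n = 5 each). Both also called Hagh, a glyoxalase, Sod1, Ccs, Gstp1, Gstz1, Hmox2, Cbr1, Maff and Txnrd2 higher. Gstp1 stood at 1125 ± 518 CPM on day 6 and 29.2 ± 31.1 CPM on day 2 with vehicle. Tfrc, the transferrin receptor, rose with vehicle to 1101 ± 865 CPM on day 6, against 169 ± 278 CPM on day 2, while Pcbp2, Ireb2, which senses iron, Ggct, Mgst2 and Glrx3 fell.

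Ncoa4 had the highest mean count of the members in the cultured libraries, 53.9. Of 3241 rows with a mean of at least 50 counts, the 3 whose log2 CPM followed it most closely over the 20 libraries were Kat6b (r = 0.938, rho = 0.806), Phlpp2 (r = 0.936, rho = 0.747) and Skap1 (r = 0.933, rho = 0.720). Without the 2 libraries farthest from the median of Ncoa4, the AR420626 library of mouse 4 on day 2 and the vehicle library of mouse 4 on day 6, r was 0.683, 0.825 and 0.851. With all 20 libraries, these 2 included, r after removal of the group means was 0.953, 0.914 and 0.928. The 20 points share 5 mice and differ in depth, and the rows were picked as the highest, so no p is given.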

How the data were processed

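Bulk RNA-seq libraries of sorted lung ILC2s were prepared by the authors with SMART-Seq v4, a kit for small RNA amounts. The authors trimmed reads with fastp and mapped them with STAR, those of C57BL/6J to mm10 and those of CC030 to a pseudogenome built on mm9, whose alignments lapels then moved to mm10. Reads per gene were counted with HTSeq. The deposited values in both tables are these raw counts, whole numbers that were not normalized. Strand settings, the annotation and the treatment of reads with several matches are not given in the sources used here. In the cultured libraries the summary rows of HTSeq, left out of all tests, hold 6378063 to 46473976 reads in no feature and 1854464 to 9895867 aligned to several places.

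Groups were taken from the deposited labels, and all 26 columns were used. Of 55401 row identifiers, 55141 had a symbol and position in GENCODE M21 (GRCm38). Genes were kept by filterByExpr (minimum count 10, minimum total 15), scaled by TMM and tested with edgeR 4.0.16 (quasi-likelihood F-test, robust) in R 4.3.3 with Benjamini-Hochberg adjustment at 0.05. Adjusted p-values come from these fits over all genes tested. Folds against a group with 0 counts use a floor of 3 counts per library. Mouse was a block in culture, since cells of each mouse were split between conditions. The correlation of same-mouse deviations from group means ranged from -0.36 to 0.34. No block was used between strains. Replicates of a group differed by more than sampling noise (lowest chi-square per degree of freedom 3.39). Between strains, p-values rest on the spread between these mice. In culture they rest on the spread left once differences between mice are taken out.

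Copies were found with blastn 2.17.0 on coding sequences. Exons were shifted by up to 3 Mb in steps of 100 bp, then of 10 bp near the best. Sequences are from the GENCODE transcripts. Code was tested on simulated data. Members and lists were chosen with earlier results of these data known. Named genes are the members, their copies, rows at shifted positions, rows most like the member highest in culture, and of each list all called rows up to 5, otherwise the 4 with the smallest p. Alternatives were DESeq2 1.42.0, its size factors, other filters, protein-coding genes alone, the block, and leaving out mice. Of the rows this rule names, 1 is not reported here.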

Additional observations from a re-analysis of the deposited data

Results flagged for a closer look

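Values of the members and of the Fads3 row were examined for a library far from the other 4 of its culture group. Of 40 groups with a spread, 10 had such a library. The rule's rate of about 1 in 20 holds only for independent groups with normal values. These groups share libraries and some hold few counts, so their number was not set against chance. Of these 10 values, 5 are from libraries of mouse 4. In vehicle cultures of day 6 mouse 4 was highest in Ncoa4 (181.63 CPM, against 27.61 to 55.19 in the others), in Slc7a11 (73.21 against 32.41 to 42.3) and in Fads3 (42938.92 against 6845.14 to 15812.23). In vehicle cultures of day 2 mouse 4 was highest in Fth1 (47.25 CPM, against 6.48 to 12.68), mouse 5 in Ncoa4 (98.23 against 24.4 to 27.06) and mouse 1 in Fads3 (1535.63 against 34.25 to 349.17). In AR420626 cultures of day 2 mouse 4 was highest in Slc7a11 (116.67 CPM from 54 counts, against 23.97 to 50.79) and mouse 5 in Fads3 (6688.19 against 22.16 to 1542.69). On day 6, mouse 5 was highest in Slc3a2 with AR420626 (10.88 CPM from 10 counts, against 0 to 2.7) and mouse 2 in Txn1 with vehicle (9.2 CPM from 11 counts, against 0 to 2.11).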

How the results depend on the processing

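Across the alternatives, 402 of 429 tests of single members kept their direction and side of the threshold, 4 passed only under an alternative, 23 changed direction without passing, and 0 lost a call. The causes were not tested. Between strains, 5 members were called with at least 10 counts in every library, where 5 could be tested (9 without that filter), and 3479 genes, or 13454 with protein-coding genes alone, against 27122, and that filter gave 1329 higher and 2150 lower, against 22798 and 4324. Leaving out a library gave 9 to 10 members and 23067 to 24412 genes. On day 6, 1314 genes were called with AR420626, 773 with no filter, 352 without mice 4 and 5 and 604 to 1271 leaving out 1 mouse, and Fads3 was at -0.96 without mice 4 and 5 and at -1.39 to -0.96 leaving out 1. With at least 10 counts in every library, 510 genes were higher and 509 lower, against 265 and 1049. On day 2, DESeq2 called 32 genes and no filter 15, against 0. For the difference between days (12 genes), DESeq2 called 301, no filter 20, at least 10 counts 6, protein-coding genes 6, no block 2, no mice 4 and 5 60, and leaving out 1 mouse 0 to 43. With time, vehicle gave 3060 genes (1000 to 5378 leaving out 1 mouse, with 0 to 1 members), and AR420626 1647 (DESeq2 3605, without mice 4 and 5 3454, leaving out 1 mouse 253 to 2771). With at least 10 counts in every library the splits were 1081 higher and 1391 lower with vehicle, against 2064 and 996, and 732 and 853 with AR420626, against 1479 and 168. Without the replicate block, 1 member was called with time in AR420626 cultures, against 0, and no other member's call changed. Between strains, where numbers are only names, the replicate block gave 26602 genes.

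Values that changed direction are log2. On day 6 Prdx1 was at -0.13 in DESeq2, -0.11 with no filter and -0.42 to 0.46 leaving out 1 mouse. On day 2, without mice 4 and 5, Fth1 was at 0.39, Gpx4 at -0.13, Slc7a11 at -0.041 and Fads3 at -1.998. Leaving out 1 mouse gave Fth1 -0.94 to 0.36, Gpx4 -0.11 to 0.49, Slc7a11 -0.077 to 0.50 and Fads3 -0.85 to 1.14. Between days, without mice 4 and 5, Fth1 was at -0.38, Gpx4 at 0.43, Slc3a2 at -0.41, Fads3 at 2.12 and Gm15590 at 3.65. Leaving out 1 mouse gave Fth1 -0.11 to 0.91, Ncoa4 -0.87 to 0.12, Hmox1 -0.54 to 0.55, Gpx4 -0.75 to 0.31, Slc3a2 -0.95 to 1.23 and Prdx1 -0.15 to 1.00. With time in vehicle and at least 10 counts in every library, Ncoa4 was at -0.51 and Slc7a11 at -0.88. The median over all genes between strains was 7.03 with TMM, 7.56 with DESeq2 size factors and 6.87 in DESeq2. Low counts limit the member rows of CC030.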
